A study of Mus musculus with 24 samples.

Results

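The transcriptional programme of murine bone marrow–derived macrophages (BMDM) given interleukin-4 and interleukin-13 (IL-4/IL-13) was described here against that of naive BMDM of the same mice, for genes that rose and for genes that fell. The comparison took the 4 libraries labelled as IL-4/IL-13 and the 4 labelled as naive, 8 of the 24 libraries of the series, and the leading number of each label tied a stimulated library to the naive library of the same mouse. All mice were wild-type C57BL/6J females aged 9 weeks, numbered 1, 2, 4 and 5 in the labels. Bone marrow was grown for 6 days in macrophage colony-stimulating factor (M-CSF), and cells then received IL-4 and IL-13, each at 20 ng/ml, for 24 h or were left unstimulated. Naive cells had thus been grown in a cytokine, since their growth factor is itself a signal, and a culture lacks the tissue in which IL-4 and IL-13 are normally made. Messenger RNA was sequenced as single reads of 150 bases. Reads per gene were deposited as counts.

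IL-4 and IL-13 are cytokines of T helper 2 cells, innate lymphoid cells and basophils. On macrophages both bind receptors that contain IL-4Rα, JAK kinases then phosphorylate the transcription factor STAT6, and STAT6 enters the nucleus and binds DNA. Macrophages stimulated in this way are often called alternatively activated or type 2 macrophages and are known from helminth infection, allergy, wound repair and adipose tissue, where they take up sugars and lipids through surface receptors, metabolize arginine, secrete matrix-binding proteins and may fuse or divide. Type I interferons act through STAT2 and IRF9 on another set of genes that restrict viruses, and resting macrophages are known to hold a low level of that signal.

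Libraries held 16238727 to 19883716 counts assigned to genes, and 13.341% to 15.231% of the counted reads fell in no gene. Of the 56884 genes in the table, 13679 passed the filter on low counts and were tested. Values are given below as CPM, the reads of a gene scaled to a library size common to all libraries by TMM, in the order of mice 1, 2, 4 and 5. CPM is not divided by transcript length, so levels are compared between groups and not between genes. The naive library of mouse 2 stood apart from the other 3 naive libraries. Against their mean, the median of its genes with a canonical transcript under 1 kb lay 0.30 higher on the log2 scale. That of genes of 6 kb or more lay 0.31 lower. The other 7 libraries stayed within 0.16 of the mean of the rest of their group in these length classes. All results were computed again without mouse 2, and that value is given where it moved the median or count of a list described here by over 1.5 times or changed a call.

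Some markers of the labelled cell type stayed high in every library, while others were much reduced by the treatment. Of 25 macrophage identity genes, 20 were lower and 4 higher past the adjusted *P* used below, with a median log2 fold change of −0.69. The macrophage marker *Csf1r*, receptor of M-CSF, read 4329, 4209, 5284 and 4508 CPM in naive cells and 3463, 3545, 4255 and 3665 CPM after IL-4/IL-13, and the lysosomal marker *Cd68* did not pass the test (log2 fold change 0.04 ± 0.06 SE). Some defining markers of other cells were at or near 0. The T cell genes *Cd3d*, *Cd3e* and *Cd3g*, the B cell gene *Pax5* and the haemoglobin gene *Hbb-bs* did not reach the level needed for a test in any group. Summed over the lists, T and NK cell markers took 13.9 to 17.8 CPM in naive cells and 4.62 to 7.41 CPM after stimulation, and neutrophil markers took 265 to 297 and 240 to 255 CPM, of which the defining *Ly6g* gave 0.0264 and 0.0271 CPM. Dendritic cell markers took 213 to 333 and 169 to 188 CPM. Of these, *Bst2*, also an interferon-stimulated gene, gave 219 and 63.8 CPM on average, and *Batf3*, also a type 2 marker, 6.65 and 94.3 CPM. Genes on these lists that macrophages can also express did move: *Siglecf*, known from eosinophils and alveolar macrophages, rose 11.7-fold, *Cd4* fell 5.47-fold and *Kdr* 9.67-fold, while the mast cell and basophil genes *Cpa3* and *Mcpt8* stayed under 1 CPM in both groups. Markers of stromal and endothelial cells summed to 49.4 to 219 CPM in naive libraries and 56.6 to 148 CPM in stimulated ones, and differed more by mouse than by treatment. In bulk samples, fewer cells of a type and less RNA per cell cannot be told apart, which holds for each result below.

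After stimulation a large part of the genes tested differed in level. A gene is called higher or lower here when it passed an adjusted *P* of 0.05 and changed at least 2.5-fold, the thresholds of the study, by the quasi-likelihood test of edgeR with the *P* values of all genes tested adjusted after Benjamini and Hochberg. After IL-4/IL-13, 737 genes were called higher, 5.39% of those tested, and 832 were called lower, 6.08%. Without the fold threshold, 4117 genes rose (30.1%) and 4162 fell (30.4%), and the median log2 fold change of all genes tested was −0.02. TMM scaling centres the genes near 0, so the balance of rises and falls is set in part by the scaling. The words rose and fell are used below for genes past the adjusted *P*, whether or not they reached the fold for a call. Counts of list members below are read against the shares of all genes tested: 5.39% called higher, 6.08% called lower, 30.1% rising and 30.4% falling.

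Rises and falls differed in their fitted extremes. Past a fitted fold of 20 there were 78 genes called higher and 44 called lower, and past 100 there were 24 and 2. Among the called genes, 61 in each direction held 3 counts or fewer in every library of the lower group. Their fitted fold depends on the prior count, so the counts of extremes do not rest on measured folds alone. Genes called higher started low, with a median level of 2.13 CPM in naive cells and 10.4 CPM after stimulation, and 262 of them lay under 1 CPM in naive cells. Genes called lower went from a median of 8.59 to 1.78 CPM. The direction was the same in 4 of 4 mice for 735 of the genes called higher and 824 of those called lower, and the stimulated libraries all lay above or all below the naive ones for 728 and 791, against 25.1% and 24.6% of all genes tested. Protein-coding genes made up 661 and 689 of the calls, and long noncoding RNAs 50 and 102.

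**Figure D1:**
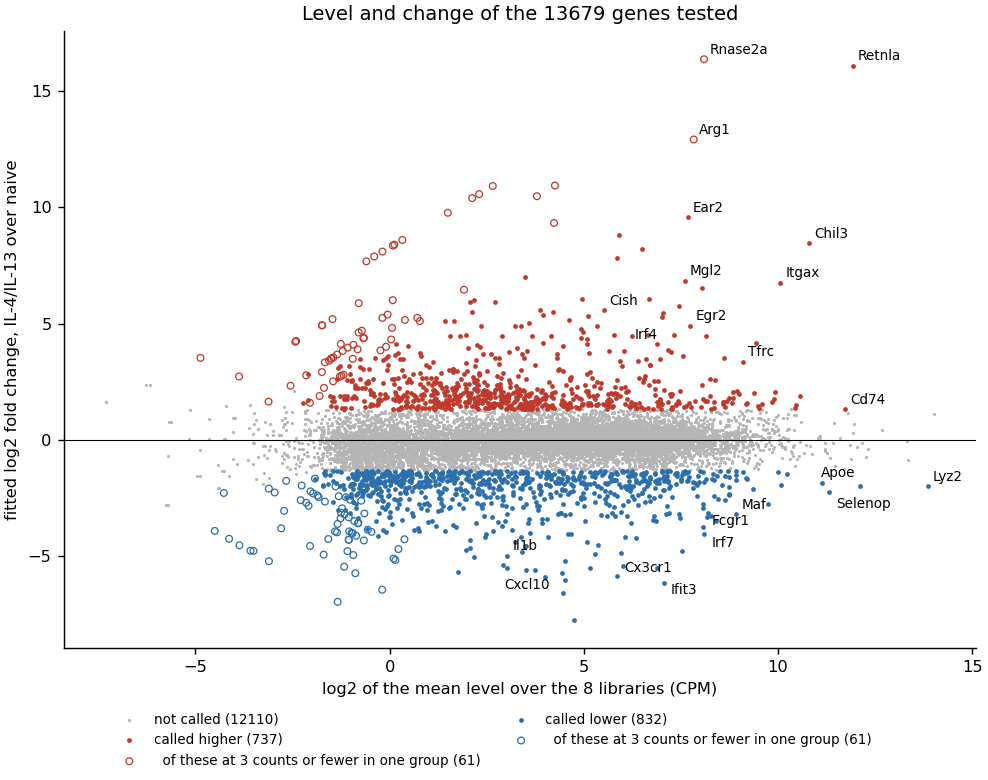
Fitted log2 fold change (IL-4/IL-13 over naive, vertical) against the log2 of the mean level over the 8 libraries in CPM (horizontal) for the 13679 genes tested. Red points are the 737 genes called higher, blue points the 832 called lower and grey points the rest. Open circles hold 3 counts or fewer in every library of the lower group (61 in each direction), and their fitted fold depends on the prior count.

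The called genes also moved a large part of the RNA itself. The 737 genes called higher took 1.69%, 1.72%, 1.70% and 1.68% of the gene counts in naive cells and 7.88%, 7.96%, 7.95% and 7.68% after stimulation. The 832 genes called lower went the other way, from 10.0% ± 0.26 (SD, n = 4) to 2.55% ± 0.0643. Since these sets were chosen on the same values, the shares describe the size of the change and test nothing. *Retnla* alone took 0.783% ± 0.0428 of all gene counts after IL-4/IL-13, and *Lyz2*, which encodes the lysozyme of macrophages, fell from 2.37% ± 0.213 to 0.603% ± 0.051.

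**Figure D2:**
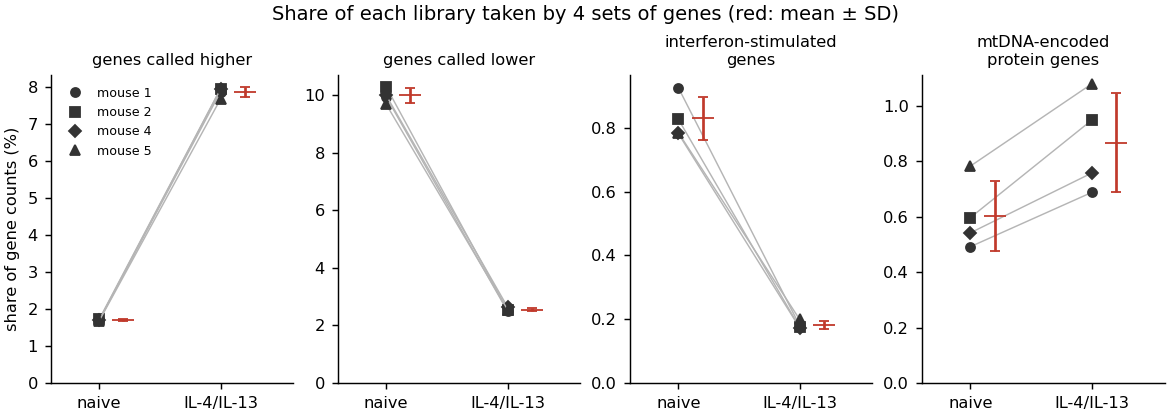
Percent of the gene counts of each library (vertical) taken by 4 sets of genes in naive and IL-4/IL-13 cells; each symbol is a mouse, lines join the libraries of a mouse, and red marks the mean ± SD. The genes called higher go from 1.70% to 7.87% and those called lower from 10.0% to 2.55%, with far smaller differences between mice.

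Of all the gene lists, that of type 2 macrophage markers rose most by its median. Of 30 tested members of a list of 31 markers, 23 were called higher and 2 lower, with a median log2 fold change of 4.08 (3.78 with genes near 0 counts set at their lower bound). The list includes markers that the study had named for IL-4/IL-13 macrophages, so its direction is not independent evidence. *Retnla* (ENSMUSG00000061100, chromosome 16, 48662895 to 48664824 on GRCm39) encodes the secreted protein RELMα. It read 0, 0.398, 0.0536 and 0 CPM in naive cells and 7963, 8060, 7832 and 7161 CPM after stimulation. *Chil3* (chromosome 3, 106054870 to 106074880), the chitinase-like protein Ym1, went from 9.61, 13.1, 9.76 and 8.10 CPM to 3503, 3646, 3997 and 3092 CPM. For both genes the highest naive library lay far below the lowest stimulated one.

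*Arg1* (chromosome 10, 24791118 to 24803817), the arginase that turns arginine into ornithine and urea, had at most 3 counts in each naive library and read 465, 473, 476 and 405 CPM after stimulation, at least 2902-fold higher. The antisense strand holds another gene over 23.8% of its exons, and whether the counting used strand is not stated. *Mgl2*, a lectin for galactose-type sugars, rose 115-fold, from 3.07, 3.87, 3.54 and 2.88 CPM to 391, 374, 385 and 380 CPM. Its paralogue *Clec10a*, near-identical over 38.6% of the exons of *Mgl2*, did not pass the test (log2 fold change 0.08 ± 0.12; 0.25 without mouse 2, adjusted *P* = 0.043 by edgeR). The mannose receptor *Mrc1* rose 3.24-fold, and the lectin *Clec7a* (Dectin-1), which binds β-glucan, rose 4.07-fold.

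Other markers spread over secreted proteins, surface molecules and enzymes. *Ear2*, a ribonuclease first known from eosinophils, rose from 0.514 to 407 CPM on average, although 65.1% of its exons have a near-identical copy elsewhere. *Flt1*, a receptor for vascular endothelial growth factor, rose 65.8-fold, and the tyrosine kinase *Matk* 12.3-fold. *Cdh1* (E-cadherin), an adhesion molecule linked to macrophage fusion, rose from 0.129 to 8.22 CPM, a log2 fold change of 5.92 ± 0.38 (6.66 without mouse 4). Smaller rises that missed the fold for a call were those of *Tfec* (2.38-fold), *Cd200r1* (1.74-fold) and *Tgm2* (1.36-fold). Called lower were *Stab1*, the scavenger receptor stabilin-1, which fell 6.71-fold from 1496 to 223 CPM, and *Il1rn*, the antagonist of the IL-1 receptor, which fell 2.85-fold.

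Some of the largest rises came from genes silent in naive cells. *Rnase2a*, also on the marker list (chromosome 14, 51492719 to 51493595), a ribonuclease of the eosinophil-associated family, had 0 counts in every naive library and read 543, 551, 607 and 488 CPM after stimulation, at least 3490-fold higher. Outside the list, *Il31ra*, a subunit of the IL-31 receptor, was at least 244-fold higher. The homeobox gene *Msx3* was at least 80.2-fold higher, the sodium channel gene *Scn3a* at least 240-fold and the potassium channel gene *Kcnd3* at least 63-fold. *Hr*, which encodes the nuclear corepressor hairless, rose 298-fold, from 0.781, 0.455, 0.697 and 0.447 CPM to 174, 183, 179 and 185 CPM. The predicted gene *Gm8113* rose 446-fold, but 86.6% of its exons have a near-identical copy elsewhere.

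**Figure D3:**
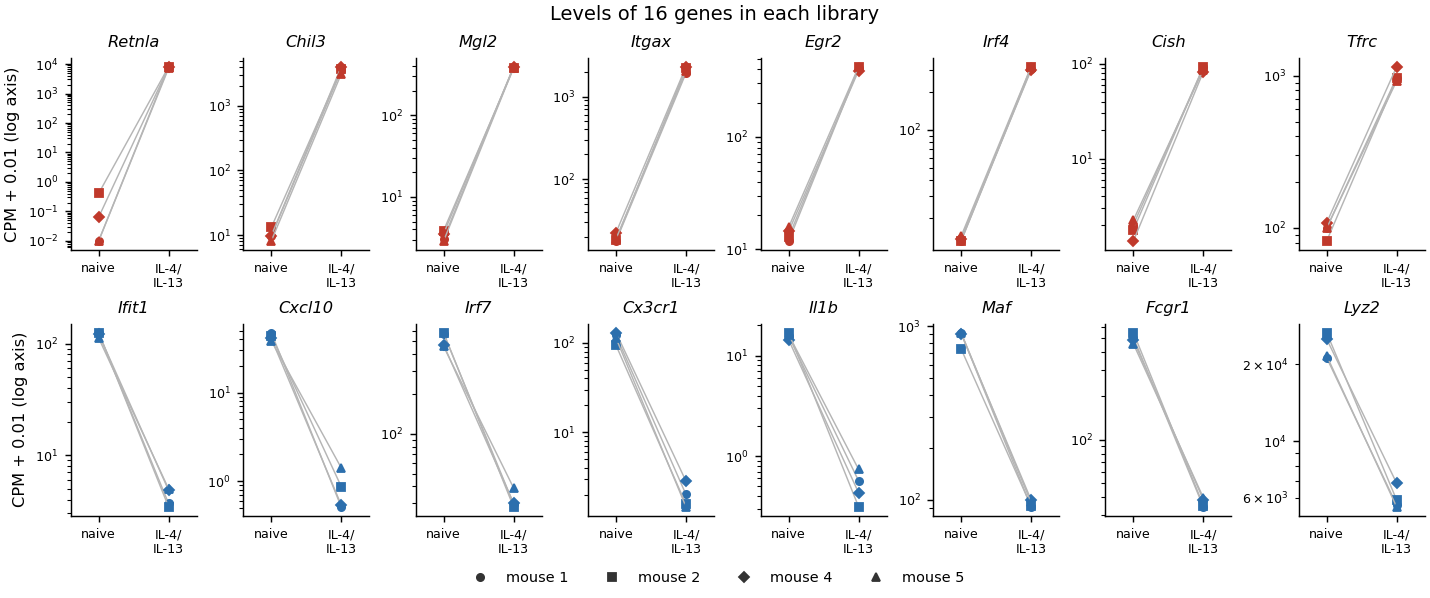
Levels of 16 genes, 8 called higher (top, red) and 8 called lower (bottom, blue), in CPM + 0.01 on log axes; each symbol is a mouse and lines join its naive and IL-4/IL-13 libraries. In all 16 genes the libraries of the groups do not overlap; *Chil3* goes from 8.10–13.1 to 3092–3997 CPM and *Cx3cr1* from 93.8–130 to 1.46–2.84 CPM.

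The sequence around the start of all tested genes was read for the letters that STAT6 is known to prefer, TTC and GAA with any 4 bases between them (the same on both strands), over 250 bases before to 50 after each annotated start. A match was found in 8.47% of the promoters of genes called higher, 5.58% of those called lower and 6.20% of the 13632 promoters read. Among the type 2 markers 5 of 30 held one, and among genes of the IL-4 receptor pathway 6 of 29. Lists that fell held it too: 7 of 44 type I interferon-stimulated genes and 6 of 16 guanylate-binding proteins and interferon γ-induced GTPases. With 3 bases between, which STAT5 is known to take, the shares were 8.61%, 8.13% and 7.49%. The 120 bases before the start of 4 genes with the match are shown because these genes rose 17.5-fold or more; capitals mark the match, and the last base printed is the one before the start. The positions, on GRCm39, are chr16:48662775-48662894 (plus strand) for *Retnla*, chr7:127728548-127728667 (plus) for *Itgax*, chr19:29388199-29388318 (plus) for *Pdcd1lg2* and chr16:10603876-10603995 (minus) for *Socs1*.
Retnla: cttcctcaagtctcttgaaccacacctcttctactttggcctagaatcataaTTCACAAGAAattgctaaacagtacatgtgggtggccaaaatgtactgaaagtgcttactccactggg
Itgax: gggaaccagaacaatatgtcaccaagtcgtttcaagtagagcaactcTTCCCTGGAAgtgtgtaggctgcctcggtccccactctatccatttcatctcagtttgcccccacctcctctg
Pdcd1lg2: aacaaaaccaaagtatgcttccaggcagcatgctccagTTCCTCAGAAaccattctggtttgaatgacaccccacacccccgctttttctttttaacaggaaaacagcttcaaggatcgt
Socs1: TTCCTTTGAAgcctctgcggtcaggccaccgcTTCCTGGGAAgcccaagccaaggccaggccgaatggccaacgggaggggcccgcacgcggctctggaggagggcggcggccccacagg

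The matches begin 68, 73 and 82 bases before the start of *Retnla*, *Itgax* and *Pdcd1lg2*. *Socs1* holds a pair of them, 120 and 88 bases before the start. A match is a run of letters and no evidence that STAT6 was bound there.

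Several inhibitors of cytokine signalling rose, and *Il4ra* and *Il13ra1*, chains of the receptors for IL-4 and IL-13, fell. Of 29 tested genes of the IL-4 and IL-13 receptors and the JAK-STAT pathway, 5 were called higher and 5 lower, and the median log2 fold change was −0.04. *Cish*, a SOCS-family inhibitor that STAT5 and STAT6 are known to induce, went from 2.00, 1.76, 1.34 and 2.24 CPM to 93.0, 93.4, 83.0 and 87.3 CPM, a 48.2-fold rise. *Socs2*, which has a near-identical copy over 23.3% of its exons, rose 19.9-fold, *Socs1* 17.5-fold and *Socs6* 3.94-fold, whereas *Socs3*, which acts on IL-6 type receptors, fell 3.90-fold from 14.4 to 3.71 CPM. *Irs2*, the adaptor that IL-4 receptors use to reach PI3 kinase, rose 3.19-fold.

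Of the receptor chains, *Il13ra1* fell 3.99-fold, from 23.4, 20.1, 27.7 and 22.8 CPM to 5.63, 5.70, 6.53 and 5.64 CPM. *Il4ra* fell 1.84-fold and *Il2rg*, the common γ chain, did not pass the test (log2 fold change −0.07 ± 0.06). *Jak2* rose 2.19-fold and *Stat5a* 1.67-fold. *Stat6* fell 1.08-fold, from 331 to 306 CPM, with groups that overlap; with mouse as a block and only the 8 libraries it did not pass (adjusted *P* = 0.11, edgeR).

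Among 63 macrophage transcription factors tested, 11 were called higher and 7 lower. *Egr2*, a zinc finger factor known to act downstream of STAT6, went from 11.8, 12.8, 14.4 and 15.7 CPM to 411, 416, 391 and 422 CPM (log2 fold change 4.91 ± 0.08). *Irf4* went from 13.1, 13.1, 13.7 and 14.3 CPM to 303, 314, 297 and 316 CPM. The replicates of both genes differed by far less than the groups. *Bhlhe40* rose 14.6-fold, *Batf3* 14.2-fold, *Klf4* 9.47-fold, *Myc* 7.62-fold and *Nfil3* 6.15-fold. *Ppargc1b*, a coactivator of mitochondrial genes, rose 11.5-fold, and *Pparg*, the lipid-activated nuclear receptor, 2.59-fold.

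Among the factors that fell, *Irf7*, the master factor of interferon production, fell from 571, 580, 469 and 457 CPM to 29.5, 28, 29.9 and 39.0 CPM, 16.5-fold. *Maf*, which restrains macrophage self-renewal and drives *Il10*, fell 9.14-fold, from 914, 739, 905 and 917 CPM to 91.1, 92.0, 100 and 96.6 CPM. The immediate early genes *Nr4a1* and *Egr3* fell 3.62-fold and 4.69-fold. *Cebpd* fell 3.00-fold, and *Irf8* and the lineage factor *Spi1* (PU.1) fell 2.01-fold and 1.23-fold, short of a call.

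Among chemokines, the CCR4 ligands *Ccl17* and *Ccl22* and the CCR3 ligand *Ccl24* rose, and the CXCR3 ligands *Cxcl9* and *Cxcl10* fell. Over the whole list 6 rose and 14 fell, with a median log2 fold change of −0.99. Of 24 chemokines tested, 5 were called higher (*Ccl17*, *Ccl22*, *Ccl24*, *Ccl6* and *Ccl9*) and 7 lower. *Ccl22*, a ligand of CCR4, went from 2.44, 2.27, 2.52 and 2.98 CPM to 24.6, 19.5, 29.6 and 23.6 CPM, and *Ccl17*, the other CCR4 ligand, was at least 13.3-fold higher. *Ccl24*, which attracts eosinophils through CCR3, rose 41.0-fold. *Ccl9* rose 2.82-fold, from 736 to 2079 CPM. *Cxcl10*, a ligand of CXCR3 that interferons induce, fell 52.5-fold, from 47.4, 43.9, 40.9 and 38.4 CPM to 0.501, 0.857, 0.527 and 1.4 CPM. *Cxcl9*, another CXCR3 ligand, was at least 6.40-fold lower, *Cxcl2* fell 3.49-fold and *Ccl3* 2.93-fold.

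Receptors for chemoattractants moved mostly down, 7 of 18 called lower and 3 higher. *Cx3cr1* (chromosome 9, 119877749 to 119898945), the fractalkine receptor of resident macrophages, fell 57.7-fold, from 121, 93.8, 130 and 113 CPM to 2.01, 1.56, 2.84 and 1.46 CPM. The formyl peptide receptors *Fpr1* and *Fpr2* fell 25.3-fold and 41.2-fold, *Cxcr3* 32.9-fold and *C5ar1*, the receptor of complement C5a, 5.98-fold from 683 to 114 CPM. *Cxcr4* fell 2.66-fold. The receptors called higher were *Ltb4r1* (16.8-fold), which binds leukotriene B4, *Cxcr2* (7.49-fold) and *Ccr1* (3.57-fold). *Ccr2* fell 1.43-fold.

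No gene of the list of inflammatory cytokines and effectors was called higher, and 15 of 29 were called lower; 1 member rose by edgeR at an unadjusted *P* of 0.05 and by DESeq2, short of the fold. *Il1b* fell 31.5-fold, from 15.6, 16.9, 14.3 and 16.1 CPM to 0.557, 0.303, 0.421 and 0.728 CPM. *Tnf* fell 3.19-fold, from 18.5, 18.8, 16 and 23.9 CPM to 6.74, 4.14, 5.48 and 8.07 CPM. These naive levels were those of cells that had received no microbial stimulus. *Il10*, an anti-inflammatory cytokine, fell as well, 16.7-fold from 10.6 to 0.624 CPM. *Nlrp3*, the inflammasome sensor, fell 3.90-fold, *Acod1*, the enzyme that makes itaconate, 5.07-fold, and *Tnfsf14* 7.02-fold. *Nos2*, the inducible nitric oxide synthase, read 0.258 CPM in naive and 0.11 CPM in stimulated cells and did not pass the test, but passed it and the fold without mouse 2 (log2 fold change −1.63, adjusted *P* = 0.042 by edgeR).

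Interferon-stimulated genes fell together, and no other list lay further down. Of 44 type I interferon-stimulated genes, 40 were called lower and none higher, against 6.08% of all genes called lower; the median log2 fold change was −2.40. DESeq2 and edgeR at an unadjusted *P* of 0.05 likewise found 0 members higher and 42 lower. They took 0.926%, 0.827%, 0.782% and 0.785% of the gene counts in naive cells and 0.180%, 0.174%, 0.173% and 0.199% after stimulation. The groups do not overlap. *Irf9* and *Ifi207* fell without reaching a call, and *Usp18* (log2 fold change −0.12 ± 0.13) and *Ifi27* (0.24 ± 0.19) did not pass the test.

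*Ifit1* (chromosome 19, 34618271 to 34632174), which binds foreign RNA caps, fell 28.7-fold, from 125, 125, 122 and 112 CPM to 3.68, 3.43, 4.84 and 4.98 CPM. *Ifit2* fell 27.5-fold, and *Ifit3* and *Ifit3b* 71.1-fold and 210-fold, but these last 2 genes are near-identical over 97.2% and 99.2% of their exons and the division of reads between them is uncertain. *Rsad2* (viperin), which blocks virus budding, fell 18.3-fold, from 170, 147, 154 and 142 CPM to 7.24, 6.86, 9.48 and 9.95 CPM. The dynamin-like GTPases *Mx1* and *Mx2* fell 9.53-fold and 12-fold, the ubiquitin-like *Isg15* 11.2-fold, and the oligoadenylate synthases *Oas2*, *Oas3* and *Oasl2* 10.2-fold, 5.34-fold and 8.72-fold. *Rigi*, a cytosolic sensor of viral RNA, fell 4.51-fold, the nucleic acid sensor *Zbp1* 5.25-fold, and *Ifitm3*, which hinders virus entry, 5.78-fold.

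Guanylate-binding proteins and GTPases induced by interferon γ followed, with 11 of 16 called lower and a median log2 fold change of −2.07. *Iigp1*, which disrupts vacuoles of parasites, fell 47.8-fold, from 30.9, 20.4, 21.3 and 17.4 CPM to 0.557, 0.252, 0.474 and 0.607 CPM. *Irgm1* fell 3.52-fold, *Irgm2* 5.14-fold and *Gbp5* 5.49-fold. The 5 members that did not pass the test included *Gbp2*, at 68.1 and 71.5 CPM, and *Gbp3*, at 50.0 and 42.4 CPM.

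The interferon-stimulated response element, to which IRF9 with STAT2 is known to bind, holds a pair of GAAA runs with 2 bases between them, or a pair of TTTC runs when read on the other strand. These letters were found in 11.2% of the promoters of genes called lower, 3.14% of those called higher and 3.81% of all promoters read. They occurred in 27 of 44 promoters of interferon-stimulated genes and 8 of 16 of the guanylate-binding protein list. The 120 bases before the start of 4 such genes are shown because all fell 10.4-fold or more; capitals mark the matches. The positions are chr19:34618151-34618270 (plus strand) for *Ifit1*, chr19:34560779-34560898 (plus) for *Ifit3*, chr1:173501121-173501240 (plus) for *Ifi208* and chr11:48955032-48955151 (minus) for *Tgtp2*.
Ifit1: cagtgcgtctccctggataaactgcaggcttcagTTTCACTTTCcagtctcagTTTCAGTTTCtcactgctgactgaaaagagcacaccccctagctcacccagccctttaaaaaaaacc
Ifit3: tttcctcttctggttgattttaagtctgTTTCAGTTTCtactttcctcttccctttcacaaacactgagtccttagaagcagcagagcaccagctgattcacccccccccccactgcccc
Ifi208: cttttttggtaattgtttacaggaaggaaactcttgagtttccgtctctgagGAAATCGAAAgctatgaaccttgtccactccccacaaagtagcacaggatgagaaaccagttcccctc
Tgtp2: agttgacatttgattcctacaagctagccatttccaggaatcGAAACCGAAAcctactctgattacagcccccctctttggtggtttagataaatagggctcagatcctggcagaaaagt

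*Ifit1* holds a pair of matches, 86 and 67 bases before its start, and the match of *Ifit3* begins 92 bases before. *Ifi208*, a member of the family of interferon-inducible DNA-binding proteins, fell 48.3-fold from 26.0 to 0.542 CPM. *Tgtp2*, an immunity-related GTPase whose exons have a near-identical copy in *Tgtp1*, fell 10.4-fold.

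Most tested genes of MHC class II rose, while more genes of class I fell than rose. Of 16 class II genes tested, 12 rose and 2 fell. Of the 16, 3 were called higher and 1 lower, against 5.39% and 6.08% of all genes tested. *H2-DMa* and *H2-DMb1*, which together load peptides onto class II, rose 3.17-fold and 2.86-fold, the former from 79.2, 104, 73.4 and 75.1 CPM to 253, 267, 267 and 262 CPM. *H2-Aa*, *H2-Ab1* and *H2-Eb1*, the chains of the class II molecule, rose 1.83-fold, 1.95-fold and 1.4-fold, and their transactivator *Ciita* 2.40-fold. The invariant chain *Cd74* rose 2.51-fold, at the edge of a call. Of 22 genes of class I presentation, 14 fell and 3 rose, and 0 were called by edgeR or by DESeq2 (15 and 3 at an unadjusted *P* of 0.05). Without mouse 2, 9 fell and the median went from −0.25 to −0.19. The genes that fell included *Tap1* (1.66-fold), the peptide transporter, and *Nlrc5* (2.28-fold), the class I transactivator.

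Costimulatory and checkpoint molecules divided, with 4 of 31 called higher and 4 lower, against 5.39% and 6.08% of all genes tested. *Pdcd1lg2*, the PD-1 ligand PD-L2, rose 66.9-fold, from 1.22, 0.739, 0.912 and 0.745 CPM to 60.1, 56.9, 66.8 and 61.4 CPM. The other PD-1 ligand, *Cd274*, rose 1.94-fold. *Cd86* and *Cd80*, which bind CD28, fell 3.88-fold and 2.28-fold, and *Icosl*, the ligand of ICOS, fell 7.05-fold from 55.7 to 7.97 CPM. *Il1rl1* (ST2), the receptor of the alarmin IL-33, rose 29.9-fold, from 2.73, 3.30, 2.47 and 1.94 CPM to 78.9, 80.9, 76.1 and 75.4 CPM.

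Receptors for uptake and for microbial products moved in both directions. The shares of all genes tested that were called higher and lower were 5.39% and 6.08%. Among 22 C-type lectins, 3 were called higher and 6 lower: besides *Mgl2*, *Mrc1* and *Clec7a*, which rose, the sensors *Clec4d*, *Clec4e* (Mincle) and *Clec4n* (Dectin-2) fell 9.95-fold, 8.69-fold and 8.86-fold. *Clec4d* went from 459, 617, 543 and 477 CPM to 45.9, 47.4, 62.3 and 55.0 CPM. Of 29 scavenger and apoptotic-cell receptors, 5 were called higher and 6 lower. *Cd36*, a receptor for oxidized lipoproteins and fatty acids, rose 3.41-fold, from 368, 421, 471 and 469 CPM to 1280, 1506, 1639 and 1467 CPM. *Olr1*, another receptor for oxidized lipoprotein, rose 29.9-fold.

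Going down were *Marco*, a receptor for bacteria and particles, which fell 45.2-fold, and *Gas6*, the bridge from apoptotic cells to TAM receptors, which fell 3.81-fold. The naive level of *Marco* was 35.5 CPM in mouse 2 and 8.2, 8.58 and 11.2 CPM in mice 1, 4 and 5, against 0.263 to 0.454 CPM after stimulation. The TAM receptor *Mertk* fell 2.09-fold, while *Axl* did not pass the test (adjusted *P* = 0.15) but did with mouse as a block (log2 fold change −0.22, adjusted *P* = 0.045, edgeR).

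Toll-like receptors and their adaptors included 8 of 29 called lower. *Cd14*, the coreceptor for lipopolysaccharide, fell 9.67-fold, from 511, 648, 569 and 528 CPM to 56.0, 56.7, 65.6 and 54.7 CPM. *Tlr2*, *Tlr7* and *Tlr9* fell 3.61-fold, 4.22-fold and 4.04-fold, and *Tlr5*, the flagellin receptor, was at least 13.8-fold lower. *Tlr4* rose instead, 1.5-fold.

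Fc receptors moved in opposite directions. The activating *Fcgr1* fell 13.5-fold, from 504, 546, 484 and 457 CPM to 34.4, 35.1, 38.5 and 39.7 CPM, and *Fcgr4* fell 5.27-fold. *Fcgr2b*, the inhibitory receptor, rose 3.36-fold, from 139, 119, 130 and 108 CPM to 404, 408, 457 and 395 CPM. *Fcgr3* rose 1.14-fold. Complement components *C1qa*, *C1qb* and *C1qc* fell 2.04-fold, 1.31-fold and 1.63-fold, and *Cd55*, which protects cells from complement, fell 14.6-fold.

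The integrin *Itgax* (CD11c; chromosome 7, 127728668 to 127749829), part of complement receptor 4, rose 108-fold, from 17.9, 18.4, 22.6 and 19.0 CPM to 1923, 2185, 2289 and 2040 CPM. Its partner *Itgb2* rose 2.59-fold and *Itgam* (CD11b), which pairs with the same chain, fell 1.84-fold. *Itgb3*, of the vitronectin receptor, rose 23-fold and *Itga1* 7.16-fold. *Itga4*, *Itga6* and *Itga9* fell 3.36-fold, 5.46-fold and 24.0-fold. In the *Ms4a* family of membrane proteins, 6 of 9 members were called lower and 0 higher (0 higher and 8 lower at an unadjusted *P* of 0.05 in edgeR, 0 and 7 in DESeq2); *Ms4a6b* fell 45.7-fold, from 257, 230, 231 and 207 CPM to 5.46, 4.64, 5.21 and 4.92 CPM.

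Genes that mark macrophage identity fell more often than they rose, 20 against 4 of 25, with 7 called lower. *Adgre1*, which encodes F4/80, fell 3.57-fold, from 3175, 3353, 3813 and 3607 CPM to 869, 954, 1113 and 974 CPM. *Adgre4* fell 42.8-fold, *Siglec1* (CD169) 5.22-fold and *Aif1* 5.33-fold. *Lyz2* (chromosome 10, 117111557 to 117118346) fell 3.94-fold. *Lgals3* (galectin-3) rose 2.25-fold, and the reduced level of *Csf1r* amounted to 1.23-fold. The receptor *Cd300e* and the inhibitory sialic acid receptor *Siglece* fell 65.3-fold and 60.2-fold, *Cd300e* from 39.9, 46.6, 42.2 and 51.2 CPM to 0.223, 0.807, 0.895 and 0.789 CPM.

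**Figure D4:**
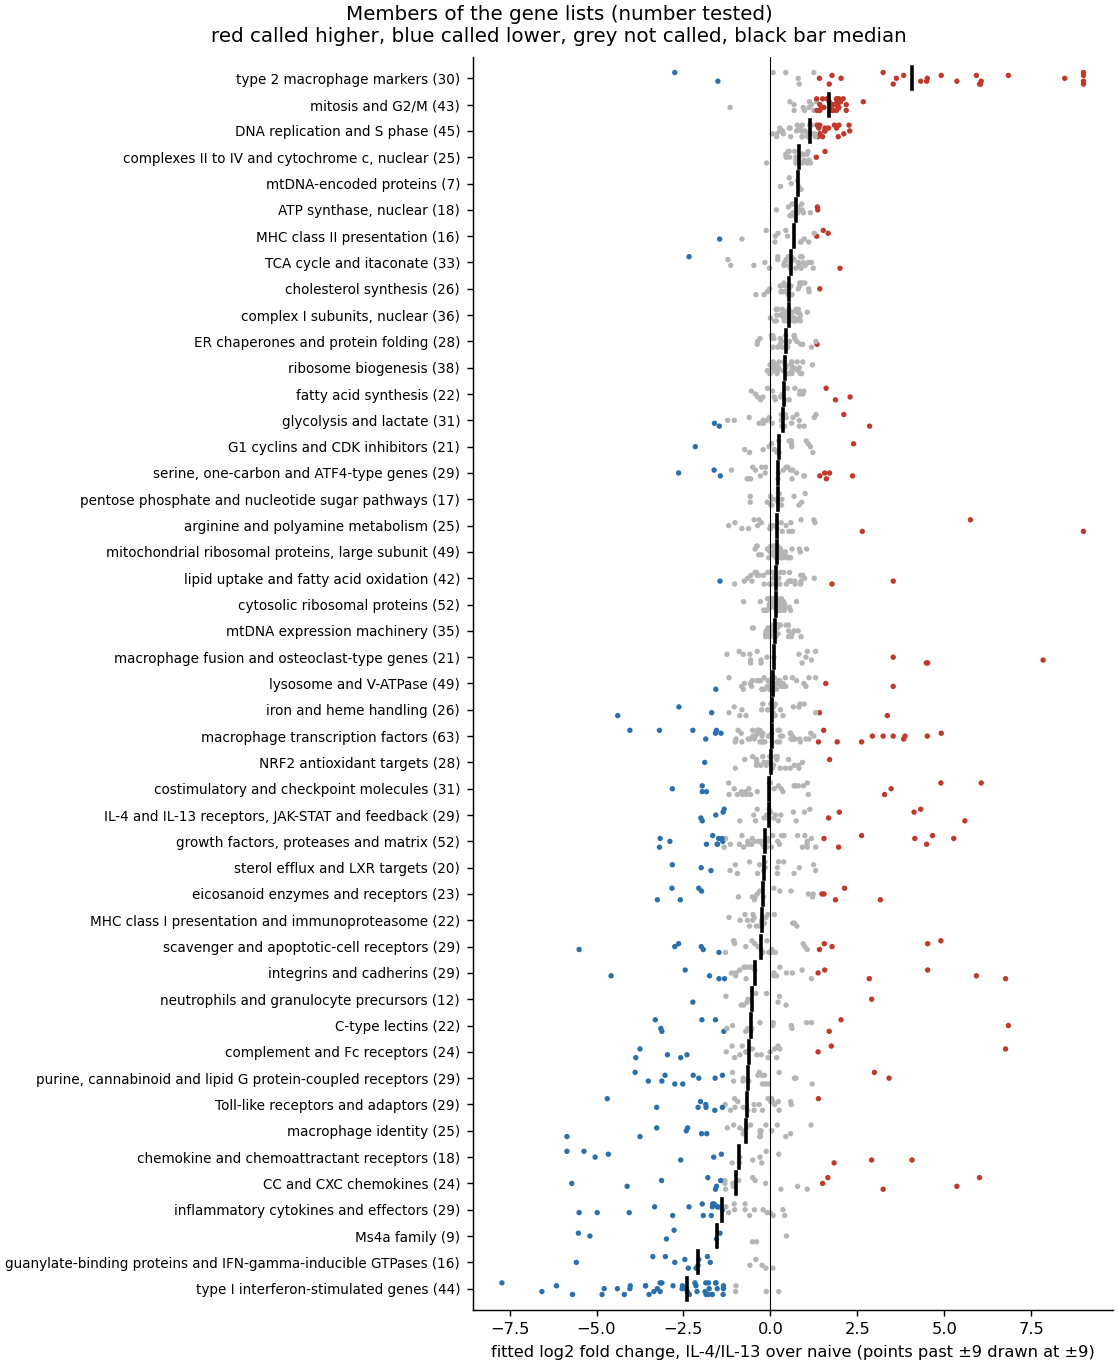
Fitted log2 fold change (horizontal; points past ±9 are drawn at the edge) of the tested members of the gene lists, ordered by the list median (black bar); red points were called higher, blue lower and grey not called, and the number tested follows each name. Medians run from 4.08 for type 2 markers to −2.40 for type I interferon-stimulated genes, and many lists hold called genes on both sides.

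Genes of cell fusion and bone-resorbing cells rose in 10 and fell in 8 of 21 cases, against 30.1% and 30.4% of all genes tested. Of the 21, 4 were called higher, against 5.39% of all genes, and the median was 0.10 (0.18 without mouse 2). *Ocstamp* and *Dcstamp*, transmembrane proteins needed for fusion into giant cells, rose 229-fold and 22.4-fold. *Ocstamp* went from 0.439, 0.455, 0.375 and 0.696 CPM to 102, 124, 123 and 109 CPM. *Atp6v0d2*, a proton pump subunit also linked to fusion, rose 11.6-fold, from 52.5, 60.0, 69.0 and 66.8 CPM to 695, 715, 740 and 720 CPM. *Ctsk* and *Acp5*, enzymes of osteoclasts, rose 2.46-fold and 1.77-fold, and *Nfatc1*, the osteoclast factor, fell 1.51-fold.

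Coagulation factors, proteases and matrix proteins changed in both directions, with 7 of 52 called higher and 10 lower. *F10* and *F7*, clotting factors X and VII, rose 38.7-fold and 25.3-fold; *F10* went from 6.93, 5.80, 6.33 and 6.91 CPM to 261, 252, 246 and 250 CPM. *F13a1*, the clotting transglutaminase, fell 7.42-fold. *Mmp12*, the macrophage elastase, rose 17.7-fold, from 64.3, 70.0, 84.9 and 73.8 CPM to 1155, 1379, 1449 and 1213 CPM, whereas *Mmp14*, a membrane collagenase, fell 9.10-fold.

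*Fn1* (fibronectin) rose 22.5-fold, from 37.7, 20.1, 30.1 and 8 CPM to 581, 520, 607 and 451 CPM. *Thbs1* (thrombospondin-1) fell 9.02-fold, from 370, 237, 376 and 279 CPM to 44.3, 38.9, 36.2 and 20.0 CPM. In the same libraries the stromal collagen *Col1a1* read 62.1, 35.6, 39.9 and 8.15 CPM in naive and 36.8, 21.6, 21.4 and 5.40 CPM in stimulated cells, a log2 fold change of −0.76 that passed with mouse as a block (adjusted *P* = 9.5e-09) and not without (0.26, both by edgeR). Mouse 5 was lowest for fibronectin and for collagen in both groups. What stromal cells gave to these levels was not tested. Among growth factors, *Igf1* rose 2.08-fold and *Fgf2* 6.15-fold, *Vegfa* fell 3.58-fold from 157 to 43.8 CPM, and *Tgfb1* did not pass the test.

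Of 25 tested genes of arginine and polyamine metabolism, 13 rose and 5 fell, and 3 were called, all of them higher. Besides *Arg1*, the cationic amino acid transporter *Slc7a2* rose 54.0-fold, from 6.78, 5.00, 7.99 and 5.76 CPM to 337, 351, 371 and 325 CPM. *Gatm*, which uses arginine to make the precursor of creatine, rose 6.24-fold. *Arg1*, *Slc7a2* and *Gatm* were the called genes. The polyamine enzymes *Odc1* and *Srm* rose 1.55-fold and 1.84-fold, although *Odc1* has near-identical copies over 47.6% of its exons, and *Arg2* fell 1.76-fold.

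In lipid metabolism synthesis rose modestly and widely. Of 26 genes of cholesterol synthesis, 21 rose and 2 fell, with a median log2 fold change of 0.53. *Nsdhl* rose 2.67-fold and was the called member, while the regulated enzyme *Sqle* rose 2.15-fold. The desaturases *Scd1* and *Scd2* rose 3.67-fold and 4.87-fold; *Scd2* went from 24.4, 19.8, 24.3 and 22.2 CPM to 109, 113, 110 and 110 CPM. *Apoe*, the lipoprotein that carries sterols out of macrophages, fell 3.98-fold, from 6247, 9726, 6782 and 5772 CPM to 1716, 1933, 1773 and 1741 CPM. The sterol exporters split, since *Abca1* fell 1.93-fold and *Abcg1* rose 2.47-fold.

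Genes of lipid uptake and fatty acid oxidation rose in 22 and fell in 10 of 42 cases, against 30.1% and 30.4% of all genes tested. The median was 0.16 (0.26 without mouse 2). *Lpl*, the lipase that frees fatty acids from lipoproteins, rose 1.63-fold, from 2439, 3065, 3130 and 3351 CPM to 4213, 4956, 5249 and 5110 CPM. *Fabp4* rose 1.97-fold. *Cpt1a*, which brings long-chain fatty acids into mitochondria, did not pass the test (log2 fold change −0.03 ± 0.07).

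Glycolysis showed an uneven pattern, with 17 of 31 genes up and 8 down, against 30.1% and 30.4% of all genes tested, and a median of 0.35. *Pfkp*, a phosphofructokinase, rose 4.30-fold, from 69.9, 64.5, 70.4 and 64.1 CPM to 281, 290, 291 and 295 CPM, and the lactate transporter *Slc16a1* rose 7.21-fold. *Slc2a1*, the glucose transporter GLUT1, rose 1.95-fold while *Slc2a3* (GLUT3) fell 3.05-fold. In the TCA cycle 26 of 33 genes rose, with a median of 0.58. *Idh3a*, a subunit of NAD-dependent isocitrate dehydrogenase, rose 4.00-fold, from 19.3, 21.9, 21.1 and 20.9 CPM to 84.7, 83.1, 80.4 and 84.6 CPM, while *Mdh2*, *Cs* and *Sdha* rose 2.35-fold, 1.83-fold and 1.88-fold.

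Serine and one-carbon metabolism and the genes that ATF4 is known to control did not move as a block. Of 29 tested, 5 were called higher and 3 lower. *Psat1* and *Phgdh*, enzymes of serine synthesis, rose 5.12-fold and 3.05-fold, although 84.6% of the exons of *Phgdh* have a near-identical copy elsewhere. The amino acid transporters *Slc7a11* and *Slc1a5* rose 3.26-fold and 2.95-fold. *Atf4* itself rose 1.17-fold, *Asns* 1.41-fold and *Trib3* 1.49-fold (adjusted *P* = 0.075 by edgeR without mouse 2), *Ddit3* did not pass the test except without mouse 2 (0.032) and *Ppp1r15a* fell 1.42-fold.

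Enzymes and receptors of eicosanoids moved in both directions, 5 of 23 called higher and 5 lower. *Ptgs1* (cyclooxygenase 1) rose 4.38-fold, from 49.8, 43.2, 56.5 and 49.5 CPM to 209, 218, 218 and 228 CPM, and the prostacyclin receptor *Ptgir* rose 8.92-fold. *Hpgd*, which inactivates prostaglandins, fell 9.49-fold, from 199, 210, 189 and 213 CPM to 20.6, 20.1, 21.6 and 23.4 CPM. *Hpgds*, a prostaglandin D synthase, fell 7.10-fold and *Alox5*, the first enzyme of leukotrienes, 6.01-fold. Of the receptors for prostaglandin E2, *Ptger2* rose 2.90-fold, and *Ptger3* and *Ptger4* fell 3.96-fold and 4.16-fold.

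The iron importer rose and the iron exporter fell. In a list of 26 iron genes 2 were called higher and 3 lower, against 5.39% and 6.08% of all genes tested. *Tfrc*, the transferrin receptor, rose 10.3-fold, from 99.9, 82.0, 108 and 99.6 CPM to 970, 961, 1145 and 923 CPM. *Slc40a1* (ferroportin), the iron exporter, fell 6.17-fold, from 151, 175, 187 and 201 CPM to 25.9, 28.6, 32.5 and 28.5 CPM. *Cp* (ceruloplasmin), which oxidizes exported iron, fell 21.0-fold. The ferritin heavy chain *Fth1* fell 1.84-fold, and the heme oxygenase *Hmox1* did not pass the test.

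Nuclear genes of oxidative phosphorylation rose in nearly all cases, mostly by less than 2.5-fold. Of 36 complex I subunits 30 rose and 0 fell (31 and 0 at an unadjusted *P* of 0.05 in edgeR and in DESeq2), with a median log2 fold change of 0.52. Of 25 genes of complexes II to IV and cytochrome *c* 24 rose (median 0.82), and of 18 ATP synthase subunits 17 rose (median 0.74). *Atp5f1b*, the catalytic β subunit of ATP synthase, rose 2.56-fold, from 374, 473, 404 and 388 CPM to 1009, 1045, 1096 and 1052 CPM. *Ndufs1*, *Uqcrc1* and *Atp5f1a* rose 1.81-fold, 2.12-fold and 2.22-fold, and *Cox4i1* 1.36-fold.

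The deviation of the naive library of mouse 2 showed in these lists. Within mice 1, 2, 4 and 5 the median difference of complex I subunits was 0.62, 0.21, 0.60 and 0.66, and that of ATP synthase subunits 0.87, 0.37, 0.83 and 0.86. Without mouse 2 the medians were 0.62, 0.94 and 0.86 for the 3 lists, with 36, 24 and 18 genes up. With the trend of each library over transcript length removed, a setting added after the data were seen, they were 0.56, 0.86 and 0.78. Cytosolic ribosomal proteins went from a median of 0.15 with mouse 2 to 0.27 without, with 20 and 35 of 52 up, and within mouse 2 their median was −0.19. Their share of gene counts was 1.11% ± 0.205 in naive and 1.23% ± 0.0523 in stimulated cells, higher in 3 of 4 mice.

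The mitochondrial genome encodes 13 proteins, of which 7 could be tested. *mt-Nd3*, *mt-Nd4l*, *mt-Co2*, *mt-Co3*, *mt-Atp6* and *mt-Atp8* were at or near 0 counts in all 8 libraries, and the first 5 of them have near-identical copies in the nuclear genome, as has *mt-Co1*, which was counted; the levels of these 6 could not be read. Of the 7, 6 rose, with a median log2 fold change of 0.78. *mt-Nd1* read 442, 620, 484 and 708 CPM in naive and 819, 1123, 853 and 1277 CPM in stimulated cells. *mt-Co1* did not pass the test (0.29 ± 0.16) but was higher in 4 of 4 mice, and passed with mouse as a block over only the 8 libraries (adjusted *P* = 0.00084, edgeR). Their joint share was 0.492%, 0.597%, 0.542% and 0.783% in naive cells and 0.688%, 0.949%, 0.758% and 1.08% after stimulation, higher in 4 of 4 mice, by 0.197, 0.353, 0.216 and 0.294 percentage points within mice 1, 2, 4 and 5. The groups overlap, and the exact two-sided permutation test of the libraries gave *P* = 0.0857. Exchanging signs within mice, added after the data were seen, gave an exact *P* = 0.125, the smallest that 4 pairs allow. A library of messenger RNA reads these transcripts only as far as they carry a poly(A) tail. *Tfam* and *Polrmt*, of the machinery that expresses mitochondrial DNA, rose 1.16-fold and 1.11-fold, the latter short of the test without mouse 2 (adjusted *P* = 0.2, edgeR).

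Genes of cell division rose as a block. Of 45 genes of DNA replication and S phase, 43 rose and 0 fell (the same numbers at an unadjusted *P* of 0.05 and in DESeq2), 18 of them called, with a median log2 fold change of 1.13. Of 43 genes of mitosis and G2/M, 42 rose and 32 were called, with a median of 1.69. *Mki67*, the proliferation antigen Ki-67, rose 3.31-fold, from 23.5, 18.5, 23 and 26.6 CPM to 82.7, 68.8, 88.1 and 63.7 CPM. *Top2a* rose 3.92-fold, *Ccna2* (cyclin A2) 4.54-fold, *Kif4* 6.36-fold and the replication factors *Rrm2* and *Uhrf1* 4.85-fold and 4.30-fold, although *Uhrf1* has a near-identical copy over 43.7% of its exons. Within mice 1, 2, 4 and 5 the mitosis median was 1.63, 1.47, 1.84 and 1.35. *Pttg1* (securin) was the mitosis gene that fell, 2.23-fold.

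By its median log2 fold change, 0.24, the list of G1 cyclins and CDK inhibitors moved less than the replication and mitosis lists. Of its 21 tested members 11 rose and 4 fell, against 30.1% and 30.4% of all genes tested, and single members moved further. *Ccnd1* (cyclin D1) rose 2.33-fold, and *Ccne2* (cyclin E2), of the replication list, rose 4.80-fold. Of the inhibitors, *Cdkn1b* (p27) fell 1.68-fold, *Cdkn1c* (p57) fell 4.48-fold from 5.80 to 1.29 CPM, and *Cdkn1a* (p21) passed only with mouse as a block (log2 fold change 0.20, adjusted *P* = 0.026 against 0.099 without, edgeR). The letters TTTGGCGC, known as an E2F site (GCGCCAAA on the other strand), were found in 11 of 45 promoters of replication genes, against 0.954% of all promoters read. They were in 0 of 43 promoters of mitosis and G2/M genes, 1.23% of those of genes called higher and 0.243% of those called lower. The other E2F type run searched, TTTCCCGC, was in 2.46% of the promoters of genes called higher and 0.728% of those called lower, and the cyclic AMP response element TGACGTCA in 2.05% and 1.33%, against 1.86% and 3.00% of all promoters. Ribosome biogenesis genes rose in 29 of 38 cases (30 in DESeq2) with 0 down at an unadjusted *P* of 0.05 or in DESeq2 (median 0.43). Chaperones and folding enzymes of the endoplasmic reticulum rose in 20 of 28 cases, *Hspa5* (BiP) 1.38-fold and *Pdia4* 2.26-fold.

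Of 49 lysosomal genes 19 rose and 16 fell, near the shares of all genes tested (30.1% and 30.4%). *Psap*, the precursor of saposins, rose 2.16-fold and the proton pump subunit *Atp6v0a1* 3.01-fold, *Ctsd* fell 1.71-fold and *Ctsb* did not pass the test. Among G protein-coupled receptors for purines and lipids, 10 of 29 were called lower and 2 higher. *P2ry1*, a receptor for ADP, rose 10.7-fold, from 9.08, 9.38, 11.9 and 11.6 CPM to 111, 114, 120 and 102 CPM, and the adenosine receptor *Adora2b* rose 7.93-fold. *P2ry12* and *P2ry13*, further ADP receptors, fell 5.73-fold and 11.4-fold, *Gpr34* fell 14.8-fold and *S1pr1*, the receptor of sphingosine 1-phosphate, 4.65-fold.

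Ranked by the difference in CPM, the called rises after *Retnla* and *Chil3* included the kinase *Prkcd*, which rose 3.68-fold from 653 to 2403 CPM, and the membrane-binding *Anxa4*, which rose 4.24-fold from 371 to 1573 CPM. The falls that ranked high besides *Lyz2*, *Apoe* and *Adgre1* were *Selenop*, the selenium carrier, which fell 4.68-fold from 4202 to 898 CPM, *Cybb*, the catalytic subunit of the phagocyte NADPH oxidase, 2.78-fold, *Ly6e* 3.80-fold and the signalling adaptor *Pik3ap1* 4.38-fold.

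Called genes lay next to each other in several places on GRCm39. On chromosome 1, 40264174 to 40808433, a run of 7 neighbouring tested genes was called higher (*Il1r1*, *Il1rl2*, *Il1rl1*, *Il18r1*, *Il18rap*, *Slc9a4* and *Slc9a2*), which holds the receptors of IL-1, IL-33, IL-18 and IL-36. *Il1rl2*, the IL-36 receptor, rose 9.73-fold, *Il1r1* 7.90-fold and *Il18r1* from 0.141 to 1.25 CPM. On chromosome 14, 51361365 to 51493595, the ribonucleases *Rnase6*, *Rnase2b*, *Ang2* and *Rnase2a* were called higher; *Rnase6* rose 5.97-fold, and *Rnase2b* and *Ang2*, at 0 counts in every naive library, were at least 9.72-fold and 8.44-fold higher.

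Runs of genes called lower were the *Ifit* genes on chromosome 19 (34527932 to 34639833, 6 genes), *Ifi* genes on chromosome 1 (173574859 to 173859456, 6 genes), *Ly6* genes on chromosome 15 (74748836 to 74988467, 6 genes) and *Ms4a* genes on chromosome 19 (11382131 to 11508620, 5 genes). *Ly6a* (Sca-1) fell 45.2-fold, from 86.2, 70.8, 76.7 and 45.9 CPM to 1.67, 1.16, 2.47 and 0.789 CPM. A called neighbour in the same direction was found for 219 of 732 genes called higher (29.9%) and 298 of 824 called lower (36.2%). Of all 13632 tested genes with a place, 10.3% lay next to a gene called higher and 11.4% next to a gene called lower. Many of these runs are gene families that arose by duplication, and their members may share reads.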

How the data were processed

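Bone marrow–derived macrophages of 4 mice were sequenced in 6 groups, and the naive and IL-4/IL-13 groups were compared. The authors deposited whole-number counts of reads per gene, made with Cutadapt 1.8, STAR 2.7 and htseq-count 0.9.1 per their methods and processing notes; the genes match GRCm39, and whether strand was used is not stated. The labels and the methods of the study give the M-CSF concentration in different units, so it is not printed. A deposited table of TPM values made with RSEM 1.2.31 was not used here, since its header and its columns differ in number.

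The 5 rows without a gene were left out of library sizes. Genes were filtered by filterByExpr by group, scaled by TMM and fitted in edgeR 4.0.16 (R 4.3.3) with the quasi-likelihood test. Filter, scaling and fit took all 24 libraries, in a single model with a coefficient per group. The oligomycin and other groups thus entered the filter, the scaling and the estimate of spread, but not the contrast. With only the 8 libraries compared, 13017 genes passed the filter. The contrast was IL-4/IL-13 minus naive. *P* values were adjusted by Benjamini-Hochberg over 13679 genes, and calls needed 0.05 and 2.5-fold. The median biological coefficient of variation was 7.1%. CPM and standard errors come from the same fit, with shares taken over raw gene counts. Where no library of a group passed 3 counts, the fold against it is given as a lower bound, computed against a floor of 3 counts per library. The test was tested on simulated counts.

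The members and gene lists were chosen with earlier results of these data known. Genes named are the 15 largest rises and falls with a mean of at least 50 counts, up to 5 called members of each list, members the study names, the 13 mitochondrial genes, the 10 highest genes in each direction that were near 0 in the other group and the 10 with the largest CPM differences; other members are given as values of list members, and a few genes are not reported here. Lists are described by counts and medians, with no test of the list other than for the joint share of the mitochondrial genes. Promoters were read from GRCm39 with the GENCODE starts, and near-identical copies were sought with blastn 2.17.0 (97% identity over 100 bases or more). That share was compared by an exact two-sided permutation test. The mice are separate animals, so replicate spread is that between mice. Same-numbered libraries come from the same mouse, and their deviations from the group means correlated at 0.31, 0.109, 0.318 and 0.489 for mice 1, 2, 4 and 5, against −0.321 to 0.084 for other pairs. Alternatives were DESeq2 1.42.0, upper-quartile scaling, other filters and thresholds, only the 8 libraries compared, mouse as a block, leaving out each mouse and, added after the data were seen, removal of the length trend of each library.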

Additional observations from a re-analysis of the deposited data

Results flagged for a closer look

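In each group of 4 libraries, a library was singled out where its gap to the nearest of the others took more of the group's range than Dixon's critical value allows. Chance alone would single out about 1 in 20 groups; here 44 of 618 were. The naive library of mouse 2 accounted for 14 of them, more than any other library. In CPM it held 739 for *Maf* against 905 to 917 in the other naive libraries, 606 for *Spi1* against 489 to 499, 97.9 for *Nlrp3* against 119 to 121 and 490 for *Siglec1* against 782 to 792. It was high for *Marco* (35.5 against 8.2 to 11.2), *Ifi27* (51.5 against 34.3 to 35.6), *Fth1* (16913 against 12267 to 12714), *Mdh2* (121 against 91.0 to 93.2), *Cox4i1* (380 against 240 to 246) and *Uqcrc1* (168 against 126 to 133). Its reads of genes near 0 were 0.398 for *Retnla* (a share of 3.94e-05% of gene counts), 0.455 for *Gm8113* and 0.0569 for *Cd3d*.

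In the other naive libraries, mouse 1 stood apart for *Il1r1* (1.51 CPM), *Mcpt8* (0.439), *mt-Nd3* (0.0488) and *Cd3g* (0.0488). Mouse 4 did so for *Anxa4* (381), *Il31ra* (0.0536) and *Cd3e* (0.0536), and mouse 5 for *Ear2* (0.944), *Bhlhe40* (23.9), *Cxcl2* (16), *Tap1* (129) and *Icosl* (62.9). Values of a few hundredths of a CPM are a single read.

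Among the IL-4/IL-13 libraries, mouse 4 was high for *Il13ra1* (6.53), *Itgb2* (2272), *Ctsk* (31.7), *Slc2a3* (7.58), *Slc7a11* (17.4), *Lgals3* (5024) and *Cd3e* (0.0527), and low for *Cp* (0.527). Mouse 5 was low for *Arg1* (405 against 465 to 476), *Cox4i1* (366) and *Tlr5* (0 counts against 0.101 to 0.111), and high for *Kcnd3* (11.3), *Ifit2* (15.5) and *Oasl2* (75.0). Mouse 1 was low for *H2-Ab1* (1232) and *Cd300e* (0.223), and mouse 2 high for *Fcrl5* (0.0504) and for the share of counts taken by *Apoe* (0.196%).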

How the results depend on the processing

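Against 737 genes called higher and 832 lower, a filter of 10 counts in every library compared left 496 and 529, which removes genes near 0 in the lower group. A 2-fold threshold gave 1058 and 1269, and the adjusted *P* alone 4117 and 4162. DESeq2 gave 762 and 807, upper-quartile scaling 720 and 852, no filter on low counts 981 and 1116, only the 8 libraries 698 and 769, and removal of the length trend 765 and 784. Leaving out each mouse gave 742 to 764 and 810 to 856. The numbers of the labels pair libraries of the same mouse, and with mouse as a replicate block the counts were 740 and 833 (700 and 775 over the 8 libraries); the block changed no call of a gene named in the text, though *Axl*, *Cdkn1a* and *Col1a1* passed the adjusted *P* with it, and *Ifi27*, *Gbp3*, *Ddit3* and *mt-Co1* also when only the 8 libraries entered, where *Stat6* and *Polrmt* no longer did. The rise of the share of the induced genes was 6.14 to 6.23 percentage points without each mouse, and that of the mtDNA-encoded genes 0.236 to 0.288. Of 283 genes tested again, 276 kept direction and side of the threshold in every alternative. *Clec10a*, not called, was −0.01 to 0.25 without each mouse. *Cd74* lost its call without mouse 4 (1.27) and mouse 5 (1.26), with upper-quartile scaling (1.31) and with the filter of 10 counts (1.32). *Ciita*, *Ctsk*, *Abcg1* and *Mdh2*, just under 2.5-fold, gained one in 1 or more alternatives (1.33 to 1.35). *Nos2* gained one without mouse 2 (−1.63). Of 53 list medians, 27 moved by less than their SD between mice in every alternative. Some near 0 changed sign: without each mouse in turn, IL-4 receptor and JAK-STAT genes ranged from −0.06 to 0.02 (mouse 1), eicosanoid genes from −0.33 to 0.07 (mouse 2) and iron genes from −0.01 (mouse 2) to 0.06, and eicosanoid genes went to 0.09 with the filter of 10 counts, and mast cell, basophil and eosinophil markers to −0.47 with the filter of 10 counts. The cause of these changes was not tested. At this depth a gene with 3 counts or fewer in every library of a group gives only a bound on its fold.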

Other observations

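Counts of gene lists not given above follow. Of all genes tested, 30.1% rose and 30.4% fell. Antioxidant targets of NRF2 rose in 10 and fell in 10 of 28 cases, with *Nqo1*, a quinone reductase, up 1.90-fold and *Mgst2*, a glutathione transferase, down 3.69-fold. The pentose phosphate and nucleotide sugar pathways rose in 10 of 17 cases and the machinery that expresses mitochondrial DNA in 16 of 35, the same numbers by edgeR and DESeq2, with 0 called in either list by either tool. Large subunit proteins of the mitochondrial ribosome rose in 28 of 49 cases with a median of 0.18 (38 cases and 0.27 without mouse 2). Fatty acid synthesis genes rose in 12 of 22 cases, *Fads3*, a desaturase-like enzyme, 3.04-fold. Sterol efflux genes and targets of LXR fell in 12 of 20 cases, among them *Mylip*, which degrades the LDL receptor, 3.27-fold.

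Some genes were nearly silenced. After stimulation *Fcrl5*, an Fc receptor-like gene of B cells, held 3 counts or fewer in each library and was at least 10.6-fold lower, from 1.42, 1.65, 1.88 and 2.04 CPM in naive cells. The potassium channel gene *Kcnj9* was at least 12.7-fold lower, the transcription factor gene *Tal2* at least 15.1-fold and *Ctla2b*, which encodes a cysteine protease inhibitor, at least 13.1-fold, although a gene on the same strand covers 64.5% of the exons of *Ctla2b*.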
